A study of Mus musculus with 10 samples.

Results

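The genes described here are the extracellular proteases of the matrix metalloproteinase (MMP) and ADAMTS families, the ADAMTS-like (ADAMTSL) proteins that resemble ADAMTS enzymes without the catalytic domain, and the tissue inhibitors of metalloproteinases (TIMPs). Members were taken by gene symbol, as Mmp, Adamts, Adamtsl or Timp followed by a number and, for Mmp, an optional letter. Of the 35667 genes in the count tables, 49 met this rule: 21 MMP, 19 ADAMTS, 5 ADAMTSL and 4 TIMP genes. They were measured by RNA-seq in mouse aorta, in 5 libraries whose titles call them Ovgp1 knockout (KO) and 5 called wild type (WT). The series gives the animals' age as 12 weeks and the strain as C57BL/6 for both groups. Ovgp1 encodes oviductal glycoprotein 1, a secreted glycoprotein first known from the oviduct, and the series concerns its part in vascular remodelling and hypertension. The labels do not say how the allele was made, which cells it affects, the animals' sex, or whether each library came from its own animal. P-values therefore measure only the spread between these libraries, which may be technical. The genotype field names Ovgp1 in full for KO replicate 1 and writes Ovgp2 to Ovgp5 for KO replicates 2 to 5, so the groups were taken from the titles.

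The wall of the aorta is a matrix of elastin, fibrillar collagen and proteoglycans laid down by smooth muscle cells and fibroblasts. MMPs are zinc enzymes, mostly secreted as inactive precursors, that cut collagens, gelatin, elastin and other matrix proteins. ADAMTS enzymes share that catalytic chemistry and carry thrombospondin repeats that hold them in the matrix. Several of them cut the proteoglycans versican and aggrecan, and others trim procollagen. TIMPs bind the active site of these enzymes and block it, so the balance of protease and inhibitor is what is usually followed in remodelling arteries.

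The 2 sets of libraries differed in ways that bear on every result below. Libraries labelled KO held 24434745 to 26694590 counts each, and those labelled WT 21242030 to 24396394. Ovgp1 itself went against the label: it had 17.8 to 21.9 CPM (a gene's counts relative to its library's total, scaled by TMM factors) in the libraries labelled KO, against 1.98 to 4.69 CPM in those labelled WT. "KO" and "WT" below are therefore names of libraries, and each direction given rests on those labels. The 5 libraries labelled KO were close to each other: over 12509 genes, the chi-square statistic per degree of freedom between any 2 of them was 1.77 to 3.25, against 11 to 154 between any 2 labelled WT. For this reason the calls from 5 against 5 libraries are set beside a second fit, per gene for the members and per list for other genes, in which the KO counts were summed and entered as 1 sample, which assumes that it varies as the WT libraries do. The mitochondrial share of counts was 7.61% to 7.88% for KO, and 16.2%, 6.75%, 13.2%, 8.92% and 9.59% for WT replicates 1 to 5. Smooth muscle genes marked all libraries as arterial wall, with the summed CPM of 8 markers at 37520 to 38150 in libraries labelled KO and 27350 to 41380 in those labelled WT. A CPM is a share of a library's RNA, so fewer cells of a type and less RNA per cell cannot be told apart.

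Of the 49 members, 36 had enough counts to be tested, and 10 of those differed between the labels at an adjusted p under 0.05 in edgeR's quasi-likelihood test with 5 libraries a group. Genes higher in the libraries labelled KO were the inhibitors Timp2 and Timp3, the gelatinases Mmp2 and Mmp9, Adamts8 and Adamtsl3. Genes lower in them were Adamts5, Adamts9, Adamts15 and Adamtsl4. The 10 calls are 27.8% of the tested members, beside 14.3% of the 15710 genes tested in all. Higher calls numbered 6, where 6.84% of all genes were called higher, and lower calls numbered 4, where 7.43% of all genes were called lower. All 5 libraries labelled KO lay above all 5 labelled WT in 6 members and below them in 2, beside 7.38% and 7.22% of all genes tested. The median log2 difference of the tested members was -0.05, near the -0.02 of all tested genes. By class it was 0.03 for MMP, -0.11 for ADAMTS, 0.48 for ADAMTSL and 0.12 for TIMP genes, so the families shared no direction. With the KO counts as 1 sample, none of the 10 passed the adjusted threshold, at adjusted p = 0.85 for Adamtsl3 and adjusted p = 0.999 for the others, and 0.0446% of all genes did. In that fit 2 members, Adamtsl3 and Adamts9, had an unadjusted p under 0.05, as did 3.72% of all genes.

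**Figure D1:**
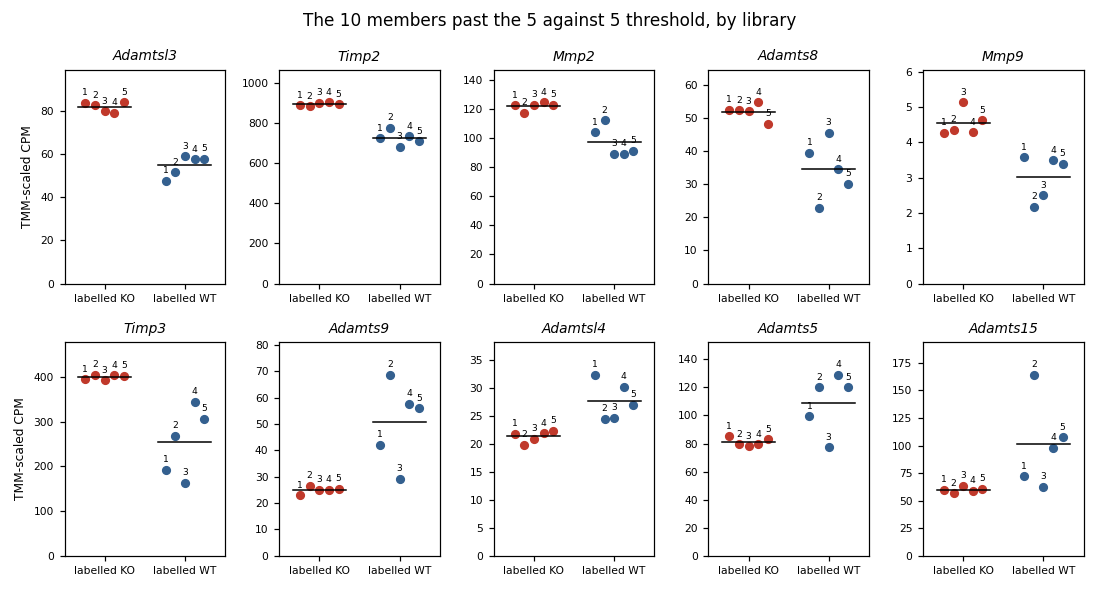
CPM (vertical axis, linear from 0) of the 10 members past the threshold, with the 5 libraries labelled KO at left and the 5 labelled WT at right of each panel. Points are libraries with their replicate number and bars are group means; the KO points lie close together in each panel, while WT points range, for Timp3, between 163 and 345 CPM.

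Promoter windows are shown for 5 members that the results turn on: Mmp3, the most abundant MMP per length, and 4 of the genes past the threshold. Each window covers 250 bases before to 50 after the start in the RefSeq table of build GRCm38.p6, which held windows for 34 of the 49 members and for 5 of the 10 called members. Capitals mark matches on either strand to 3 short motifs: TGANTCA, the site of the AP-1 factors, TATAAA, the TATA box, and GGGCGG, the GC box. The windows are Mmp3 at chr9:7445572-7445871, plus strand, Timp2 at chr11:118355362-118355661, minus strand, Timp3 at chr10:86300162-86300461, plus strand, Adamtsl3 at chr7:82335444-82335743, plus strand, and Adamts9 at chr6:92943485-92943784, minus strand.
Mmp3: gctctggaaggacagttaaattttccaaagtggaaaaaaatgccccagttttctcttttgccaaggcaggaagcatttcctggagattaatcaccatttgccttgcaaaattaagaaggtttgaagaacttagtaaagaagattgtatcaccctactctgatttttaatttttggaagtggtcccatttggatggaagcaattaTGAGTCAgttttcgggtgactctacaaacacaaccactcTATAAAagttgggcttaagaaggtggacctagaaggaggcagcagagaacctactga
Timp2: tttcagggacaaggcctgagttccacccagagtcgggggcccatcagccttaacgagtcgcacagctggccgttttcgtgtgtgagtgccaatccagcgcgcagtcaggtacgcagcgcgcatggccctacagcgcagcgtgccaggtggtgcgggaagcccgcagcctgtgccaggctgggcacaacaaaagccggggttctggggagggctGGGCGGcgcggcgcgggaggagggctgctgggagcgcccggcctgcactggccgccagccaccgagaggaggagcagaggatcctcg
Timp3: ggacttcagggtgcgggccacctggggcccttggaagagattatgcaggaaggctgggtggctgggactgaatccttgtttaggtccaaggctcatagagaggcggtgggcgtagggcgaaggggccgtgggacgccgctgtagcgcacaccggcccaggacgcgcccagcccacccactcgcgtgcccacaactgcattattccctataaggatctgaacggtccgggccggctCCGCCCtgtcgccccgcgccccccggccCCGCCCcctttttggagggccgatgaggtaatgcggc
Adamtsl3: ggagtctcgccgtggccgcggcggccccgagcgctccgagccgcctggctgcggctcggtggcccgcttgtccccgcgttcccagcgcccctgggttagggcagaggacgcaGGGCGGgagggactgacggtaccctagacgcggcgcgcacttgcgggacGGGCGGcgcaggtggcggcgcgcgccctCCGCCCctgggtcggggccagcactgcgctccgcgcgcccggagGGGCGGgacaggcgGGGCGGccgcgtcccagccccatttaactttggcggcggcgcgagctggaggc
Adamts9: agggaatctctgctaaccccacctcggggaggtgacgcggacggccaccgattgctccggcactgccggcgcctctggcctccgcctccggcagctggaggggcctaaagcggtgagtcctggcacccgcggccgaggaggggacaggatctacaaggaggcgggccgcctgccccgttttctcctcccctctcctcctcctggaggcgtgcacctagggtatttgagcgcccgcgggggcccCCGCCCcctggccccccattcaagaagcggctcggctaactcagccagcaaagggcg
The Mmp3 window was 40% G and C with 1 CpG, and held an AP-1 match 46 bases before the start and a TATA match 7 bases before it. The other 4 windows held neither motif and were rich in G and C, at 68.7% for Timp2, 67% for Timp3, 78.7% for Adamtsl3 and 70% for Adamts9. GC-box matches numbered 5 in the Adamtsl3 window, 2 in that of Timp3 and 1 each in those of Timp2 and Adamts9. Among the 37 windows of members, 6 held an AP-1 match, and all 6 belonged to genes of the MMP cluster on chromosome 9 (Mmp3, Mmp7, Mmp10, Mmp12, Mmp13 and Mmp20). Over the 32851 windows in the table, 7.81% held an AP-1 match, 13.6% a TATA match and 35.7% a GC-box match. The member windows held a TATA match in 10 and a GC-box match in 22. These matches describe letters only. The windows of the 3 higher genes and of the lower gene Adamts9 were alike in lacking AP-1 and TATA matches.

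Levels were compared between genes as CPM per kilobase of exon, with exon lengths from GENCODE M21. On that scale the inhibitor Timp2 stood first in the libraries labelled KO, at 229 CPM per kb, and in those labelled WT, at 186 CPM per kb. Mmp3, stromelysin-1, came next at 120 CPM per kb in libraries labelled KO and 124 in those labelled WT. Mmp23, a membrane-anchored MMP, had 64.6 and 63.2 CPM per kb in KO and WT libraries, and Adamts1, a versican-cleaving enzyme, had 62.0 and 72.1 CPM per kb. Timp3 averaged 49.1 CPM per kb in libraries labelled KO and 31.4 in those labelled WT, and Timp1 averaged 41.2 and 53.0 CPM per kb. Mmp2, gelatinase A, followed with 36.2 CPM per kb in KO libraries and 28.8 in WT libraries. Adamts10, which is linked to fibrillin microfibrils, had 23.0 and 20.3 CPM per kb in KO and WT libraries. Within the WT libraries the ranges of Mmp23 and Adamts1 overlapped, as did those of Timp1 and Timp3, so their order is not fixed by these data. At the low end, Mmp12 averaged 0.0808 CPM per kb in KO libraries and 0.0511 in WT libraries.

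**Figure D2:**
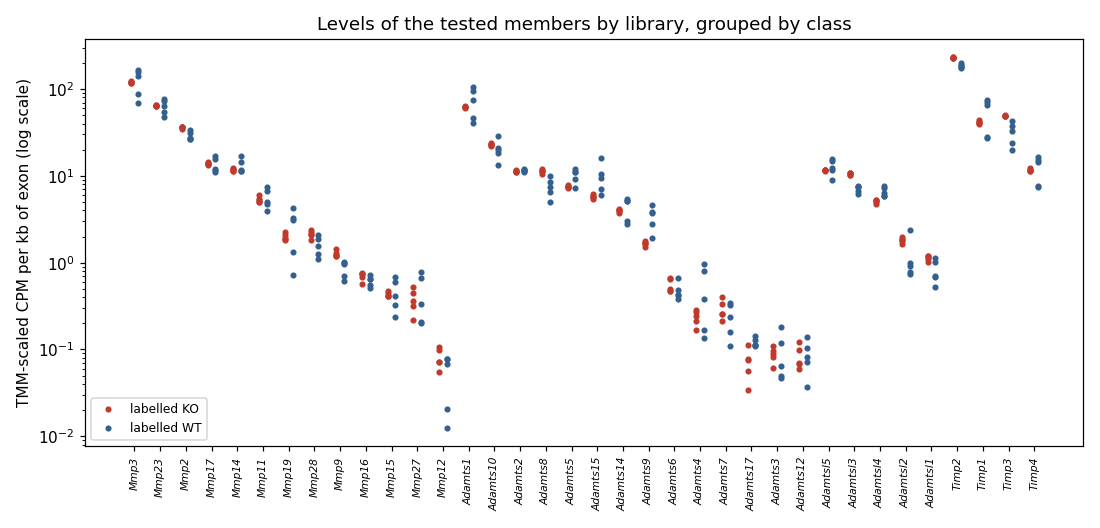
CPM per kilobase of exon (vertical axis, log scale) of the 36 tested members, grouped as MMP, ADAMTS, ADAMTSL and TIMP and ordered within each by mean level. Each point is 1 library, labelled KO at left and labelled WT at right of each gene; Mmp3 leads the MMPs at means of 120 (KO) and 124 (WT), and Timp2 leads the TIMPs at 229 (KO) and 186 (WT).

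The 13 members left untested, 8 MMP and 5 ADAMTS genes, had at most 14 counts in any library. That maximum was for Adamts20, at 0.526 CPM. Mmp7, Mmp10 and Mmp20 were at 0 counts in at least 8 of the 10 libraries. At this depth such genes were at or below the limit of measurement, which does not show that they are absent.

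The 8 MMP genes on chromosome 9 (7272514 to 7699585, GRCm38, a stretch of 427.1 kb) hold Mmp13, Mmp12, Mmp3, Mmp10, Mmp8, Mmp27, Mmp20 and Mmp7, among them collagenases, stromelysins and the macrophage elastase. Mmp3 was the only one of the 8 with a sizeable level in these aortas. It lay between 124 and 300 CPM over the 10 libraries, while the other 7 reached at most 1.72 CPM, for Mmp27, and 2 of those 7 were tested. Mmp3 had 220, 211, 212, 217 and 219 CPM in KO replicates 1 to 5, against 124, 300, 157, 282 and 257 CPM in WT replicates 1 to 5. All 5 libraries labelled KO lay inside the WT range, and the log2 difference of -0.06 did not pass the test (adjusted p = 0.895). Mmp12, macrophage elastase, had only 10 to 21 counts in KO libraries and 2 to 13 in WT libraries. Its log2 difference was 0.64 with an adjusted p of 0.335.

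Among the inhibitors, Timp2 and Timp3 were higher in KO libraries, and Timp1 and Timp4 did not pass the test in either direction. Timp2, which inhibits MMPs broadly and also takes part in the activation of pro-MMP2 at the cell surface, lies on chromosome 11 (118301069 to 118355740, minus strand). It had 888, 883, 900, 902 and 893 CPM in KO replicates 1 to 5, against 723, 777, 682, 733 and 708 CPM in WT replicates 1 to 5. All KO values lay above all WT values, with the smallest gap between 883 CPM in KO replicate 2 and 777 CPM in WT replicate 2. The mean was 893 ± 8.25 CPM for KO and 724 ± 35.0 CPM for WT (SD, n = 5 each), a 1.23-fold difference (95% interval 1.15 to 1.33, adjusted p = 0.00269). With KO as 1 sample the interval of the fold was 0.992 to 1.53, which includes 1 (adjusted p = 0.999).

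Timp3, which binds to the matrix and inhibits ADAMTS enzymes as well as MMPs, lies on chromosome 10 (86300372 to 86349506, plus strand). Its CPM was 395, 406, 394, 404 and 403 in KO replicates 1 to 5, against 192, 269, 163, 345 and 307 in WT replicates 1 to 5. The KO values stood within a narrow band above every WT value, while WT replicates 1 and 3 had the 2 lowest levels. Means were 400 ± 5.42 CPM for KO and 255 ± 76.4 CPM for WT (SD, n = 5 each), 1.57-fold (95% interval 1.2 to 2.05, adjusted p = 0.0336). With KO as 1 sample the fold's interval was 0.853 to 2.88 and the call was lost (adjusted p = 0.999). The call was also lost without any 1 of the libraries labelled KO, at adjusted p of 0.0669 to 0.0726. Timp3 shares 1733 exon bases with Syn3, on the opposite strand, in GENCODE M21. Syn3 had 44 to 63 counts in KO libraries and 34 to 56 in WT libraries. Timp3 had 9911 to 11047 counts in KO libraries and 3274 to 8380 in WT libraries. Since the strand setting of the counting is unknown here, reads of the shared bases cannot be told apart.

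Timp1, an inducible inhibitor, had 38.8, 35.8, 36.8, 34.9 and 36.8 CPM in KO replicates 1 to 5, against 24.8, 62.3, 24.3, 65.7 and 58.4 CPM in WT replicates 1 to 5. Timp4, the TIMP known for its presence in heart and vessels, had 66.9, 66.4, 72.7, 69.6 and 68.9 CPM in KO replicates 1 to 5, against 43.8, 85.2, 45.0, 98.4 and 89.1 CPM in WT replicates 1 to 5. In both genes WT replicates 2, 4 and 5 were high, WT replicates 1 and 3 were low, and every KO value fell in the gap between them. Their log2 differences were -0.37 (adjusted p = 0.418) and -0.07 (adjusted p = 0.867). The direction depended on which WT libraries were used. Without WT replicates 1 and 3 the log2 difference was -0.75 for Timp1 and -0.38 for Timp4. Without WT replicates 2, 4 and 5 it was 0.58 and 0.64, and each of these differences was past the threshold. Since the KO values lay between these WT libraries, the opposite signs were fixed by that order and are no test of direction. Over all genes, 4386 of 16100 and 6638 of 16603 tested were called in these fits. Summed over the 4 TIMP genes, CPM was 1389, 1391, 1403, 1411 and 1402 in KO replicates 1 to 5, against 984, 1193, 914, 1242 and 1163 in WT replicates 1 to 5. Timp2 made up most of that sum in all 10 libraries.

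Of the 13 MMP genes tested, 2 were higher in KO libraries and none was lower, and both were gelatinases. These calls are 15.4% of the tested MMP genes, near the 14.3% of all genes tested that were called. The gelatinase Mmp2, on chromosome 8 (92827291 to 92853420, plus strand), digests denatured collagen and type IV collagen. Its CPM was 123, 117, 123, 125 and 123 in KO replicates 1 to 5, against 104, 112, 89.3, 89.2 and 91.2 in WT replicates 1 to 5. Every KO value was above every WT value, the closest pair being 117 in KO replicate 2 and 112 in WT replicate 2. Means were 122 ± 2.71 CPM for KO and 97.2 ± 10.5 CPM for WT (SD, n = 5 each), 1.26-fold (95% interval 1.13 to 1.39, adjusted p = 0.0089). With KO as 1 sample the interval was 0.976 to 1.61 (adjusted p = 0.999).

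Mmp9, gelatinase B, on chromosome 2 (164940780 to 164955850, plus strand), was a gene of low level, with 107 to 137 counts in KO libraries and 50 to 85 in WT libraries. Its CPM was 4.27, 4.36, 5.13, 4.28 and 4.62 in KO replicates 1 to 5, against 3.58, 2.18, 2.50, 3.50 and 3.39 in WT replicates 1 to 5. The groups did not overlap, with 4.27 the lowest KO value and 3.58 the highest WT value. The difference was 1.49-fold (95% interval 1.19 to 1.89, adjusted p = 0.0273). With KO as 1 sample the interval was 0.88 to 2.54 (adjusted p = 0.999). Without any 1 of the libraries labelled KO its adjusted p was 0.0536 to 0.0736, past the threshold in none. Mmp9 is made by macrophages and neutrophils, and 2 of 8 macrophage markers, Adgre1 and Csf1r, were higher in KO libraries, though not with KO as 1 sample (adjusted p = 0.999 for both). None of the 8 was called lower, but log2 differences were -0.18 for Mrc1, -0.14 for C1qb and -0.0059 for Cd68. Those of Lyz2, C1qa and C1qc were 0.23, 0.20 and 0.22, not called. Of all genes tested, 6.84% were called higher. The summed CPM of the macrophage list was 322 to 334 in KO libraries and 228 to 385 in WT libraries. The part of macrophages in the Mmp9 result was not tested. Of the neutrophil genes on the granulocyte list, Elane, Mpo, Ly6g, Ngp and Camp reached at most 8 counts in any library. S100a8 reached 0.359 CPM in KO libraries and 0.988 CPM in WT libraries, and S100a9 reached 0.074 and 1.85 CPM. The neutrophil genes were named after values were seen, and none had enough counts to be tested.

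The abundant MMPs other than Mmp2 did not pass the test. Mmp23 had 150, 154, 151, 153 and 148 CPM in KO replicates 1 to 5, against 182, 151, 169, 112 and 126 CPM in WT replicates 1 to 5 (log2 difference 0.03, adjusted p = 0.89). Mmp17, a membrane-type MMP held by a lipid anchor, had 91.0, 89.0, 90.6, 95.6 and 94.1 CPM in KO replicates 1 to 5, against 104, 72.7, 111, 76.8 and 78.4 CPM in WT replicates 1 to 5 (log2 difference 0.05, adjusted p = 0.791). In both, WT replicates 1 and 3 were the highest, and WT replicates 4 and 5 were below all KO libraries in Mmp23. Mmp14, the membrane-type MMP that activates pro-MMP2, was picked out after values were seen. It had 68.1, 68.5, 74.0, 71.3 and 70.3 CPM in KO replicates 1 to 5, against 67.0, 67.9, 70.3, 99.9 and 87.1 CPM in WT replicates 1 to 5 (log2 difference -0.16, adjusted p = 0.351). Its WT spread came from replicates 4 and 5, with replicates 1 to 3 close to the KO values. Mmp19, also picked out after values were seen, had 6.52 to 7.98 CPM in KO libraries, against 2.54, 11, 4.69, 14.9 and 11.4 CPM in WT replicates 1 to 5 (adjusted p = 0.589). It shares 789 exon bases with Tmem198b on the opposite strand, a gene with 195 to 223 counts in KO libraries and 115 to 200 in WT libraries.

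**Figure D3:**
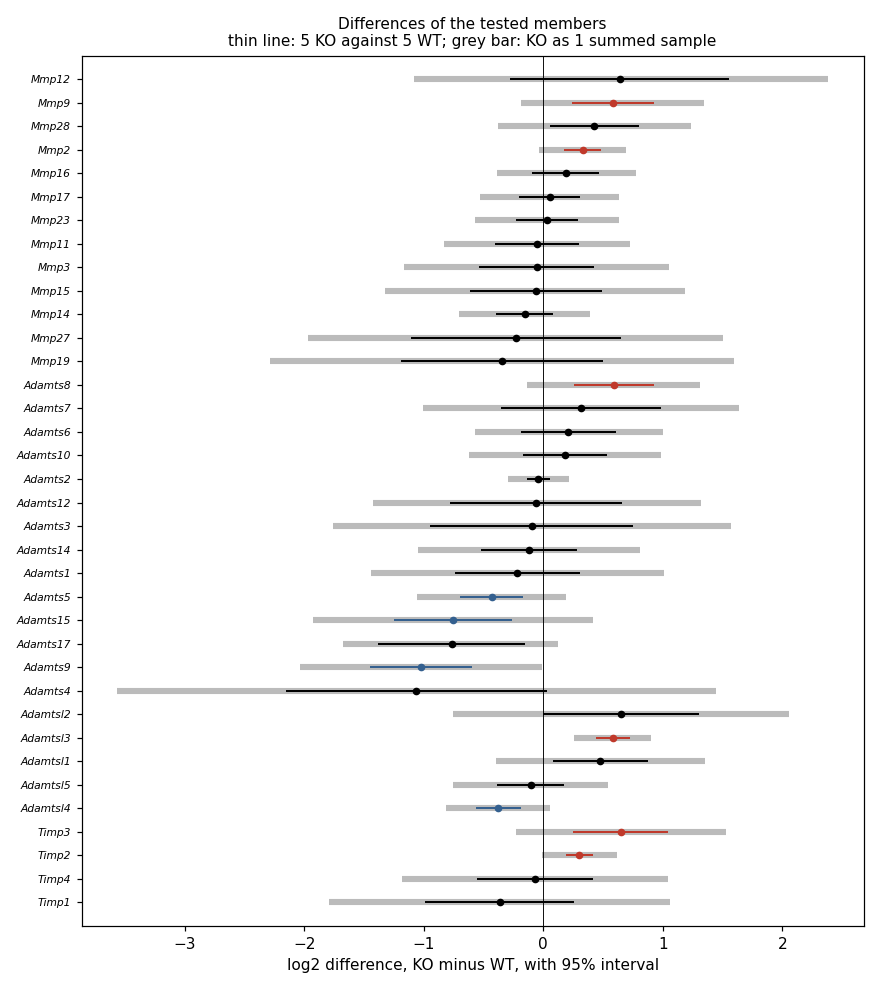
Log2 difference, KO minus WT (horizontal axis), of the 36 tested members. Points with thin lines are the 5 against 5 estimate and its 95% interval, red for genes called higher in libraries labelled KO, blue for those called lower and black for the rest. Grey bars are the 95% interval with KO as 1 sample; they cross 0 for all members but Adamtsl3 and Adamts9.

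The ADAMTS family was the class with most lower calls, 3 of 14 tested genes, with 1 higher. Together these calls are 28.6% of its tested genes, beside 14.3% of all genes tested. Adamts9 showed the largest difference among the called members, and encodes an enzyme that cuts versican and has a role in vessel development. It lies on chromosome 6 (92772699 to 92943492, minus strand). Its CPM was 22.9, 26.6, 25.0, 25.1 and 25.4 in KO replicates 1 to 5, against 42.1, 68.8, 29.3, 57.8 and 56.0 in WT replicates 1 to 5. All KO values lay below all WT values, the closest WT library being replicate 3. Means were 25.0 ± 1.35 CPM for KO and 50.8 ± 15.3 CPM for WT (SD, n = 5 each), a fold of 0.492 (95% interval 0.369 to 0.656, adjusted p = 0.00635). With KO as 1 sample the interval was 0.244 to 0.994 (unadjusted p = 0.0485, adjusted p = 0.999). On the opposite strand, A730049H05Rik shares 1381 exon bases with Adamts9 and had 13 to 33 counts in KO libraries and 19 to 78 in WT libraries. Adamts9 had 574 to 708 counts in KO libraries and 587 to 1609 in WT libraries. Reads of the shared bases cannot be told apart. Gm15737, also on the opposite strand, shares 424 exon bases and had 36 to 51 counts in KO libraries and 28 to 39 in WT libraries.

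Adamts5, the main aggrecanase of mouse cartilage and also a versican-cleaving enzyme, lies on chromosome 16 (85856173 to 85901828, minus strand), 53059 bases from Adamts1. It had 85.0, 79.5, 78.0, 79.5 and 82.9 CPM in KO replicates 1 to 5, against 99.4, 120, 77.3, 129 and 120 CPM in WT replicates 1 to 5. WT replicate 3 was just below the lowest KO library, so the groups overlapped, and the other 4 WT libraries were higher. The fold was 0.741 (95% interval 0.621 to 0.885, adjusted p = 0.0304), and its interval with KO as 1 sample was 0.481 to 1.14 (adjusted p = 0.999). The call was lost without WT replicate 2, 4 or 5, at adjusted p of 0.0553, 0.0532 and 0.0685, and without any 1 KO library, at 0.0592 to 0.0744. Scaling by library totals alone also ended it, at adjusted p = 0.104. Its neighbour Adamts1, an early-response gene whose product cuts versican, had 321, 335, 329, 329 and 329 CPM in KO replicates 1 to 5, against 245, 395, 216, 555 and 499 CPM in WT replicates 1 to 5. The KO libraries sat between the high WT replicates 2, 4 and 5 and the low WT replicates 1 and 3 (log2 difference -0.22, adjusted p = 0.58).

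Adamts15 and Adamts8 are neighbours on chromosome 9, 20109 bases apart and on opposite strands, and were called in opposite directions. Adamts15, a versican-cleaving enzyme (30899155 to 30922452, minus strand), had 59.8, 56.6, 63.6, 59.0 and 60.7 CPM in KO replicates 1 to 5, against 72.4, 164, 62.6, 98.1 and 108 CPM in WT replicates 1 to 5. WT replicate 3 lay within the KO range and WT replicate 2 stood highest. The fold was 0.593 (95% interval 0.424 to 0.829, adjusted p = 0.0436), and its interval was 0.263 to 1.34 with KO as 1 sample (adjusted p = 0.999). Without WT replicate 2 alone the log2 difference was -0.49 (adjusted p = 0.0359), against -0.75 with it. This call was the nearest to the threshold, and was lost without any 1 KO library (adjusted p 0.0811 to 0.0979), without WT replicate 4 (adjusted p = 0.0684) or 5 (adjusted p = 0.0816), and with scaling by library totals alone (adjusted p = 0.0889).

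Adamts8 (30942562 to 30963838, plus strand), an ADAMTS with reported anti-angiogenic and proteoglycan-cleaving activity, had 52.4, 52.3, 52.0, 54.7 and 48.2 CPM in KO replicates 1 to 5, against 39.5, 22.9, 45.6, 34.5 and 30.1 CPM in WT replicates 1 to 5. All KO values were above all WT values, with 48.2 CPM in KO replicate 5 nearest to 45.6 CPM in WT replicate 3. Means were 51.9 ± 2.33 CPM for KO and 34.5 ± 8.66 CPM for WT (SD, n = 5 each), 1.51-fold (95% interval 1.2 to 1.88, adjusted p = 0.0231). With KO as 1 sample the interval was 0.911 to 2.48 (adjusted p = 0.999), and the call was also lost without WT replicate 5 (adjusted p = 0.0541) or without any 1 of KO replicates 1 to 4 (adjusted p up to 0.0576). The antisense gene CT025653.1 shares 489 exon bases with Adamts8 and had 15 to 23 counts in KO libraries and 4 to 14 in WT libraries. The order of the WT libraries in Adamts8 was not that of Adamts15: WT replicate 2 was the lowest in Adamts8 and the highest in Adamts15.

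The remaining abundant ADAMTS genes did not pass the test. Adamts10 had 188, 191, 190, 195 and 185 CPM in KO replicates 1 to 5, against 175, 109, 236, 163 and 152 CPM in WT replicates 1 to 5 (log2 difference 0.18, adjusted p = 0.479). Adamts2, which removes the amino-terminal propeptide of fibrillar procollagens, had 105, 108, 103, 104 and 105 CPM in KO replicates 1 to 5, against 103, 113, 108, 107 and 110 CPM in WT replicates 1 to 5. It was the steadiest of the named members across WT libraries, with a coefficient of variation of 3.37%. Its fold lay between 0.915 and 1.03 in the 95% interval (adjusted p = 0.548). Adamts4, the other classical aggrecanase, was low, with 20 to 36 counts in KO libraries and 13 to 112 in WT libraries. Its CPM was 0.798, 1.35, 1.31, 1.17 and 1.04 in KO replicates 1 to 5, against 1.86, 0.813, 0.649, 4.61 and 3.90 in WT replicates 1 to 5. The WT libraries 4 and 5 stood far above the other 3, and the log2 difference of -1.06 had an adjusted p of 0.176.

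Of the 5 ADAMTSL genes, Adamtsl3 was higher and Adamtsl4 lower in KO libraries, which is 40% called, beside 14.3% of all genes tested. ADAMTSL proteins have no protease domain and several bind fibrillin microfibrils. Adamtsl3, on chromosome 7 (82335694 to 82614450, plus strand), had 83.8, 82.7, 79.9, 79.0 and 84.0 CPM in KO replicates 1 to 5, against 47.7, 51.6, 59.1, 57.5 and 57.8 CPM in WT replicates 1 to 5. The groups were widely apart, with 79.0 the lowest KO value and 59.1 the highest WT value. Means were 81.9 ± 2.29 CPM for KO and 54.7 ± 4.88 CPM for WT (SD, n = 5 each), 1.5-fold (95% interval 1.36 to 1.64, adjusted p = 0.000204). It had the lowest p of the members in the fit with KO as 1 sample, where the interval was 1.2 to 1.87 (unadjusted p = 0.00346, adjusted p = 0.85).

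Adamtsl4, which binds fibrillin and whose human gene is mutated in dislocation of the eye lens, lies on chromosome 3 (95676201 to 95687917, minus strand). It had 21.8, 19.8, 20.9, 21.9 and 22.4 CPM in KO replicates 1 to 5, against 32.4, 24.5, 24.7, 30.2 and 27.0 CPM in WT replicates 1 to 5. All KO values were below all WT values, by a gap of 22.4 to 24.5 CPM. The fold was 0.77 (95% interval 0.679 to 0.873, adjusted p = 0.0126), and its interval was 0.569 to 1.04 with KO as 1 sample (adjusted p = 0.999). Adamtsl2, linked in humans to geleophysic dysplasia, had 14.2, 14.4, 15.9, 13.1 and 14.9 CPM in KO replicates 1 to 5, against 19.0, 7.95, 7.24, 5.85 and 6.22 CPM in WT replicates 1 to 5. WT replicate 1 alone exceeded the KO libraries. The log2 difference was 0.65 (adjusted p = 0.166) with it and 1.10 (adjusted p = 0.000205) without it. Adamtsl5 had 54.2 to 55.8 CPM in KO libraries, against 69.8, 41.8, 73.2, 57.6 and 54.8 CPM in WT replicates 1 to 5 (log2 difference -0.11, adjusted p = 0.611). The other 12 tested members of the families had mean levels between 0.489 CPM (Adamts3) and 21.5 CPM (Adamts14) over the 10 libraries, and none passed the test, at adjusted p between 0.0888 (Adamts17) and 0.926.

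The spread between WT libraries was wide in these genes. The median coefficient of variation over tested members was 4.63% between KO libraries and 28.6% between WT libraries, beside 5.65% and 15.6% over all tested genes. In 21 of the 36 members all 5 KO values lay inside the WT range, which is 58.3%, beside 44.5% of all tested genes. WT replicates 2, 4 and 5 were all above WT replicates 1 and 3 in 10 members: Timp1, Timp3, Timp4, Mmp3, Mmp12, Mmp19, Adamts1, Adamts5, Adamts9 and Adamts15. That is 27.8% of the tested members, against 23.3% of all tested genes. The opposite order was found in 7 members (Mmp11, Mmp15, Mmp17, Mmp23, Adamts8, Adamts10 and Adamtsl5), which is 19.4%, against 22.8% of all tested genes. The summed CPM of 8 endothelial markers was 364 to 379 in KO libraries, and 266, 614, 210, 720 and 614 in WT replicates 1 to 5. None of those 8 markers was called. White adipocyte markers (6 genes) summed to 583 to 610 CPM in KO libraries, and to 459, 663, 369, 1638 and 1249 CPM in WT replicates 1 to 5. Most of the adipocyte sum was Fabp4, at 384, 597, 298, 1371 and 1055 CPM in WT replicates 1 to 5. Fabp4 had 461 to 487 CPM in KO libraries. Among WT libraries, Adipoq, Cidec and Retn were lowest in replicate 2, Plin1 was lowest in replicate 3, and Lep was highest in replicate 2. The part of endothelial or adipocyte cells in the members' spread was not tested. Summed over classes, ADAMTS genes had 865 to 878 CPM in KO libraries, against 801, 1017, 808, 1190 and 1114 CPM in WT replicates 1 to 5. The MMP genes had 685 to 707 CPM in KO libraries, against 625, 743, 637, 711 and 684 CPM in WT replicates 1 to 5.

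**Figure D4:**
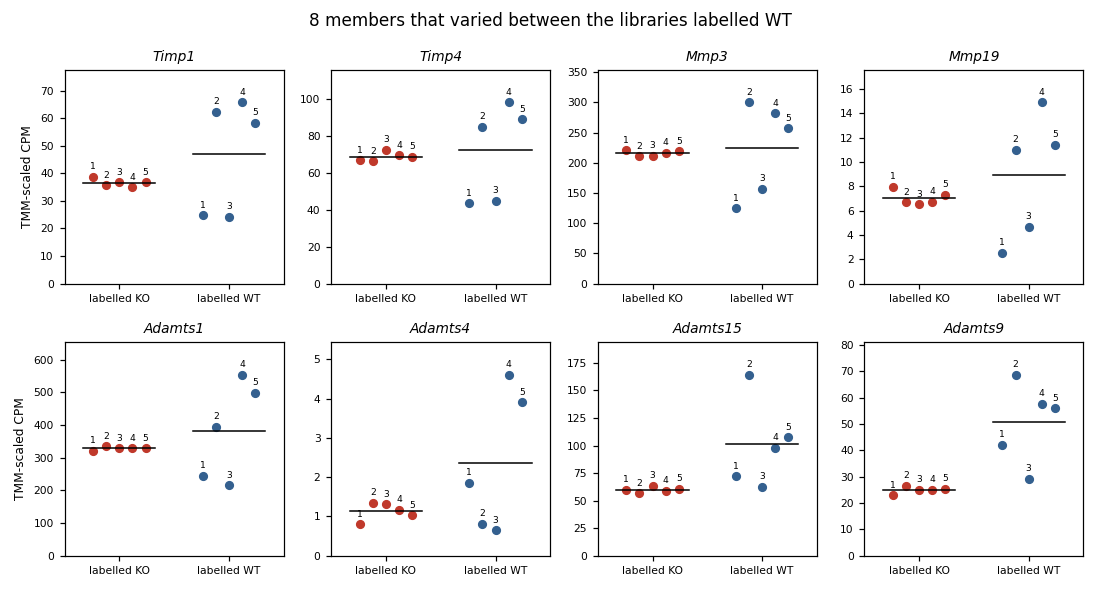
CPM (vertical axis, linear from 0) of 8 members chosen after values were seen for how they varied between WT libraries, with libraries labelled KO at left and WT at right. Points carry the replicate number and bars are means; in Timp1 the KO points lie at 34.9 to 38.8, between WT replicates 1 and 3 at 24.3 to 24.8 and WT replicates 2, 4 and 5 at 58.4 to 65.7.

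Of 8 fibroblast markers, 5 were higher in KO libraries (Dcn, Lum, Dpt, Scara5 and Cd34) and none was lower. Beside this and the marker counts below, 6.84% of all genes tested were called higher and 7.43% lower. The other 3 did not pass: Pi16 had a log2 difference of 0.13, Pdgfra -0.05 and Col1a1 -0.34, with Col1a1 at 293 CPM on average in KO libraries and 371 CPM in WT libraries. Their list summed to 2816 to 2866 CPM in KO libraries, against 2152, 2528, 2283, 2335 and 2355 CPM in WT replicates 1 to 5. Lum, lumican, was highest in fold among them, at 277 ± 2.54 CPM for KO and 155 ± 17.3 CPM for WT (SD, n = 5 each). None of the 8 was called with KO as 1 sample. Of 9 nerve and Schwann cell markers, 5 were higher, among them Mbp, Th and Dbh, and the list summed to 51.8 to 56.7 CPM in KO libraries and 22.2 to 35.8 CPM in WT libraries. None of these was called with KO as 1 sample. Lymphocyte and plasma cell markers differed more, with 4 of 7 tested genes higher and a list sum of 276 to 281 CPM in KO libraries, against 9.74 to 27.3 CPM in WT libraries. Of these, Ighm alone was called with KO as 1 sample (adjusted p = 0.0413). All 5 tested red cell markers were lower, with a list sum of 19.2 to 21.3 CPM in KO libraries against 65.8 to 327 CPM in WT libraries, and none was called with KO as 1 sample. The part of any of these cells in the results for Timp2, Timp3, Mmp2 and Adamtsl3 was not tested.

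Genes that act with these proteases were read from lists chosen for their known roles. Of 17 activators, inhibitors and partners, 13 were tested and 6 were higher in KO libraries, none lower. Over all genes tested, 6.84% were called higher and 7.43% lower. Pcsk5, a proprotein convertase that activates secreted precursors, averaged 102 ± 3.44 CPM in KO libraries and 48.2 ± 4.21 CPM in WT libraries (SD, n = 5 each). It had the lowest adjusted p of that list with KO as 1 sample (adjusted p = 0.0644). Reck, a membrane-anchored MMP inhibitor, averaged 136 ± 1.27 CPM in KO libraries and 111 ± 1.97 CPM in WT libraries (adjusted p = 0.000626, and 0.999 with KO as 1 sample). The others were Pcsk6, Pcolce, which enhances procollagen processing, Ccbe1, a partner of Adamts3, and B3glct, which glycosylates thrombospondin repeats. None of the list was called with KO as 1 sample. The median log2 difference of the list was 0.18, beside -0.02 for all tested genes.

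In the plasminogen system, whose protease plasmin can activate pro-MMPs, 8 of 11 genes were tested, 4 were higher and 1 was lower in KO libraries. The shares over all genes tested were 6.84% higher and 7.43% lower. Plat, tissue plasminogen activator, averaged 144 ± 2.70 CPM in KO libraries and 105 ± 6.07 CPM in WT libraries (SD, n = 5 each, adjusted p = 0.000188). Plau, urokinase, averaged 8.12 ± 0.736 and 5.55 ± 1.32 CPM in KO and WT libraries (adjusted p = 0.0374). Serpine2, a serine protease inhibitor that blocks both activators, averaged 1557 ± 18 and 1274 ± 137 CPM in KO and WT libraries (adjusted p = 0.0227). S100a10, part of a plasminogen receptor, was lower, at 65.4 ± 2.73 CPM in KO libraries and 105 ± 30.9 CPM in WT libraries (adjusted p = 0.0274). None of the list was called with KO as 1 sample.

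Of 21 matrix substrates, 19 were tested, 4 were higher and 1 was lower in KO libraries. The higher ones were Col3a1, the type III collagen of the vessel wall, Dcn (decorin), Thbs2 and Comp, and the lower one was Col4a1, a chain of basement membrane collagen. Col3a1 averaged 1019 ± 10.7 CPM in KO libraries and 794 ± 96.0 CPM in WT libraries, and Col4a1 averaged 573 ± 11.3 and 722 ± 106 CPM (SD, n = 5 each). None of the list was called with KO as 1 sample (adjusted p = 0.999 for all 5). The list's median log2 difference was 0.09. Of 10 ADAM genes, all tested, Adam22 and Adam23 were higher, both of which lack an active protease site, and none was lower. Both calls were lost with KO as 1 sample (adjusted p = 0.999). Of 16 immediate early genes, Ier3 was higher and Nr4a3 and Ier2 were lower, and none was called with KO as 1 sample. Nr4a3, a nuclear receptor quickly induced by many stimuli, averaged 17.7 ± 0.428 CPM in KO libraries and 121 ± 82.0 CPM in WT libraries (adjusted p = 0.00825, and 0.999 with KO as 1 sample).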

How the data were processed

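Gene counts were analysed from 10 mouse aorta RNA-seq libraries, 5 labelled KO and 5 labelled WT. The authors deposited whole-number read counts per Ensembl gene, not normalized. Per the labels' protocols, frozen aortas were extracted with Trizol and libraries made with an Illumina TruSeq RNA kit. Bowtie 0.12.2 and the genome builds mm8 and mm9 appear in the submitters' processing notes, without a stated role. The counter, its annotation and its strand setting were details not given in the sources used here. Gene positions and exon lengths are from GENCODE M21 (GRCm38), matched by Ensembl ID for 35519 of 35667 genes and for all 49 members.

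Counts were tested in R 4.3.3 with edgeR 4.0.16, by its robust quasi-likelihood test with TMM factors and no covariate. Genes with too few counts were dropped by filterByExpr (minimum count 10, minimum total 15), leaving 15710. P-values were adjusted by Benjamini-Hochberg over all of them, at 0.05. The second fit summed the KO counts to 1 sample over the same genes. Alternatives were RLE factors, library totals, no filter, DESeq2 1.42.0, a replicate block and leaving out libraries. Replicate numbers were not treated as pairs, except in the replicate block.

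Members and lists were chosen with earlier results of these data known. Genes named were those past the threshold, the 4 MMP, ADAMTS and ADAMTSL genes of highest CPM per kb, all TIMPs, and Mmp9, Mmp3, Mmp12, Adamts1, Adamts4 and Adamts5. Of the other lists, genes named were those past the threshold or the 2 of highest CPM. Exceptions are stated where they occur, and a few genes of the other lists are not reported here.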

Additional observations from a re-analysis of the deposited data

Results flagged for a closer look

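Of 48 groups of 5 libraries checked over the named members, 2 held a library far from the other 4, and chance alone gives about 1 in 20 groups. Mmp2 was lowest in KO replicate 2, at 117 CPM, with the other 4 KO libraries at 123 to 125 CPM. This lone low library was still above all WT libraries. Adamtsl2 was highest in WT replicate 1, at 19.0 CPM, with the other 4 WT libraries at 5.85 to 7.95 CPM.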

How the results depend on the processing

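The limit that bears on all results is how alike the libraries labelled KO were. With the KO counts summed to 1 sample, 0 members were called higher and 0 lower, against 6 and 4 with 5 libraries a group, and 7 against 2242 over all genes. Adamtsl3, Timp2, Mmp2, Adamts9 and Adamtsl4 kept their call in 17 of 18 alternatives, all but that one. Members called numbered 6 higher and 4 lower with RLE factors and with DESeq2, and 5 and 3 with no filter on low counts. In the fit with no filter, Timp3, Adamts8, Adamts5 and Adamts15 were lost. Of its higher calls 4, and of its lower calls 2, were also called in the main fit, and the rest were other members. Scaling by library totals alone gave 6 higher and 2 lower, and moved the share of all calls that were higher to 76%, against 47.9%, while no filter gave 65.7%. Low counts limit the 13 untested members, Mmp12 and Adamts4.

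Same-numbered libraries deviated together with correlations of only -0.037 to 0.047, and 2 of 5 KO libraries correlated best with their own number. The KO libraries differed little from each other, so these correlations cannot show whether same-numbered libraries were paired. The replicate block gave 5 members higher and 2 lower, and 1319 calls over all genes, and put the log2 difference of Mmp3 at 0.023 and of Timp4 at 0.0077. Leaving out 1 KO library gave 3 to 4 members higher and 2 to 3 lower, with 1287 to 1393 calls over all genes. Leaving out 1 WT library gave 5 to 8 higher and 2 to 4 lower, with 1764 to 2678 calls over all genes.

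Without WT replicates 1 and 3, 10 members were called higher and 10 lower, with 4386 calls over all genes. Without WT replicates 2, 4 and 5, 13 were called higher and 8 lower, with 6638 calls. The cause of these moves was not tested. Without WT replicates 2, 4 and 5 the log2 difference turned to 0.51 for Adamts1, -0.11 for Adamts10, 0.0012 for Adamts2, 0.041 for Mmp14, -0.22 for Mmp17, 0.98 for Mmp19, -0.21 for Mmp23, 0.62 for Mmp3, 0.58 for Timp1 and 0.64 for Timp4, and moved to 1.17 for Timp3, -0.51 for Adamts9, 0.29 for Adamts8, -0.12 for Adamts5 and -0.17 for Adamts15. Without WT replicates 1 and 3, Timp3 moved to 0.40 and Adamtsl5 turned to 0.12. Library totals turned Adamts2 to 0.034 and Mmp3 to 0.0020, and no filter turned Adamts2 to 0.0093. Leaving out single WT libraries in turn gave a range of -0.054 to 0.13 for Mmp23 (negative without replicate 4 or 5), -0.20 to 0.087 for Mmp3 (positive without replicate 2 or 4) and -0.20 to 0.067 for Timp4 (positive without replicate 2, 4 or 5).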

Other observations

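Mmp8, neutrophil collagenase, was below the level tested, and its counts were not even. It had 0, 2, 0, 0 and 0 counts in KO replicates 1 to 5, against 1, 2, 1, 11 and 10 in WT replicates 1 to 5. WT replicates 4 and 5 were also the libraries with most CPM of the neutrophil gene S100a9, picked out after values were seen, at 1.85 and 1.81, and no other library passed 0.77 CPM. The neutrophil gene S100a8 shared that order, with its highest CPM of all libraries in WT replicates 4 and 5. Ngp was highest in WT replicate 5, but WT replicate 4 was below WT replicates 1 and 3. Mpo, Camp, Ly6g and Elane did not share the order. Mpo and Camp had no counts in WT replicates 4 and 5. Ly6g was seen in WT replicate 1 alone, and Elane was at most 0.0731 CPM in any library. Adamts20 had 3 to 14 counts in KO libraries and 0 to 8 in WT libraries.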
